A study of Mus musculus with 20 samples.

Results

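The 10 genes described here are the Notch receptors Notch1, Notch2 and Notch3, the ligands Dll1, Jag1 and Jag2, and the Notch targets Hes1, Hey1, Heyl and Nrarp. They were taken by name from the 49585 genes of the deposited count table, and 10 of 10 were among the 20616 genes with enough reads to be tested. RNA sequencing covered 18 primary mouse osteosarcomas and 2 libraries of 1 osteosarcoma cell line. The tumours came from mice (strain given as C57BL/6J and 129S/SvJae mix) that carried 1 altered p53 allele: p53+/- (n = 4), p53R172H/+ (n = 6), p53R245W/+ (n = 3) or p53R270H/+ (n = 5), called below p53+/- (p53 het in the plots), R172H, R245W and R270H tumours. No tumour without a p53 alteration was included, so p53+/- was the reference in every contrast with it. The cell line, number 14, is labelled p53R245/O; its control library is labelled as a heterozygous mutant with loss of heterozygosity, and the other library as p53 siRNA knockdown. The labels do not give the age or sex of the mice, the site of a tumour, whether a tumour kept its wild-type p53 allele, or whether the tumours of a group came from separate animals, so p-values measure only the spread between these samples. The line is 1 line with 1 library per condition and has no replicate check.

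Notch receptors sit in the cell membrane and bind ligands of the Delta-like and Jagged families on a neighbouring cell. Ligand binding lets an ADAM protease and then gamma-secretase cut the receptor, and the freed intracellular domain enters the nucleus, where it joins the DNA-binding protein RBPJ and a Mastermind coactivator and turns on targets such as the Hes and Hey repressors. In bone, Notch signalling is known to hold back osteoblast differentiation, and in blood vessels it acts in endothelial cells and, through NOTCH3, in the mural cells around them. The question put to the data was whether the levels of these genes differed between tumours with different p53 alleles, and whether they moved in the line when p53 was knocked down.

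In the build GRCm38, the receptor genes lay at chr2:26457903-26516663 on the minus strand (Notch1), chr3:98013527-98150361 on the plus strand (Notch2) and chr17:32120820-32166852 on the minus strand (Notch3). The ligand genes lay on the minus strand at chr17:15367354-15376872 (Dll1), chr2:137081456-137116644 (Jag1) and chr12:112907819-112929776 (Jag2). The target genes lay at chr16:30064384-30067796 on the plus strand (Hes1), chr3:8663359-8667256 on the minus strand (Hey1), chr4:123233556-123249875 on the plus strand (Heyl) and chr2:25180758-25183339 on the plus strand (Nrarp). All are annotated as protein-coding.

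Promoter sequence was available from RefSeq (GRCm38.p6) for 7 of the 10 genes (not for Hes1, Hey1 and Heyl), at 8 start sites. The 250 bases before each start site were searched on both strands for 3 motifs: TGGGAA, the core of the RBPJ site, CACNAG, the N box bound by Hes proteins, and CACGNG, a second Hes and Hey site; CACGAG counts for both of the latter. TGGGAA was found in 0 of the 8 windows, and in 21.6% of the 32536 promoters searched in the same way. CACNAG was found in the windows of Notch1, Notch2, Notch3 and Nrarp, and in 36.7% of all promoters. CACGNG was found in those of Notch2, Notch3, Jag1 and Nrarp and in each Dll1 window, and in 23.6% of all promoters. The Jag2 window held no match. The 3 windows below lie wholly upstream of their genes and show a receptor, a ligand and a target with matches, which stand in capitals; the rest is in lower case, 5′ to 3′ on the gene's strand. They are Notch3 at chr17:32166891-32167140 on the minus strand, Dll1 (its second start site) at chr17:15376933-15377182 on the minus strand, and Nrarp at chr2:25180508-25180757 on the plus strand.
Notch3: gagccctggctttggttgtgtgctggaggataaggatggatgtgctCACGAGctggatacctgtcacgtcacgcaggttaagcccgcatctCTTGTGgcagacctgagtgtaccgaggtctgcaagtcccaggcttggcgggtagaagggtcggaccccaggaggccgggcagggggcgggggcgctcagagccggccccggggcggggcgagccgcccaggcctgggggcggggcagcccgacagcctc
Dll1: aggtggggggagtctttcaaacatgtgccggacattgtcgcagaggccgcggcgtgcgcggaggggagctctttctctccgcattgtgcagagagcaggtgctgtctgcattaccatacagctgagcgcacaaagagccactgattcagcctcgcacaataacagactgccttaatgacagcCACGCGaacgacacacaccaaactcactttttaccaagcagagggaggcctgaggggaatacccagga
Nrarp: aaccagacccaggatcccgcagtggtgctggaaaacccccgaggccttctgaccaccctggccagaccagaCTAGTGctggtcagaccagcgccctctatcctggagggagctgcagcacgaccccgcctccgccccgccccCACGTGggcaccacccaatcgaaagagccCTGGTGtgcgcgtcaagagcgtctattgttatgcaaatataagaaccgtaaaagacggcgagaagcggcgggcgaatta
The Notch3 window held 2 CACNAG matches, 1 of which also matched CACGNG. The Dll1 window held 1 CACGNG match, and the Nrarp window held 2 CACNAG matches and 1 palindromic CACGTG, which counts on both strands. These are letter matches and say nothing of binding.

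The tumour libraries held 20136957 to 29211623 counts and the line libraries 64078428 and 73352548. Levels are given as CPM, the gene's count divided by the library's total count on the usual CPM scale, where 3 counts, taken here as the floor, correspond to 0.103 to 0.149 CPM in a tumour. Trp53, the gene that encodes p53, was measured at 20.2 ± 5.75 CPM in p53+/- tumours (mean ± SD), 50.6 ± 13.5 in R172H, 64.5 ± 8.54 in R245W and 36.8 ± 11.9 in R270H. Over 14 osteoblast and osteocyte markers the summed level was 34500 to 136000 CPM in the tumours and 8220 CPM in the line control, where the osteocyte genes Dmp1, Mepe and Sost were at or under 3 counts. A serial number stands in the titles of p53+/- tumours 1 and 2 and of every R172H and R245W tumour, 11 in all, and is missing from the 7 remaining titles, which belong to p53+/- tumours 3 and 4 and the R270H tumours. What the number marks is not stated, so a contrast of R270H with R172H or R245W cannot be told apart from it except through the p53+/- tumours.

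Notch2 was the most abundant receptor transcript in each tumour. Corrected for length, in CPM per kilobase of exon, Notch2 ranged from 31.4 to 59.4 with a median of 39.2, Notch3 from 2.95 to 36.4 with a median of 15.8, and Notch1 from 3.11 to 9.49 with a median of 5.69. Per kilobase, Notch2 was above Notch3 in 18 of 18 tumours, and Notch3 was above Notch1 in 17 of 18, the exception being 1 p53+/- tumour. The order of Notch3 and Notch1 rests on the length used, all annotated exons together, 14232 bases for Notch1 and 8089 for Notch3. In plain CPM, Notch1 was above Notch3 in p53+/- tumours 1 and 4, R172H tumours 1, 3, 4 and 6, and R270H tumour 2. The shares that follow rest on the same lengths. Of the 3 receptors' summed length-corrected level, Notch2 made up 73.4 ± 13.0% in p53+/- tumours (SD, n = 4), 65.2 ± 5.27% in R172H (n = 6), 61.3 ± 11.9% in R245W (n = 3) and 62.1 ± 7.72% in R270H (n = 5). The Notch3 share was 16.5 ± 10.2% in p53+/-, 22.6 ± 3.39% in R172H, 31.4 ± 10.1% in R245W and 29.6 ± 9.12% in R270H. The SDs of these shares overlap between genotypes, and the shares were not tested. They leave out Notch4, which is not a member and was at 23.18 to 80.19 CPM in the tumours, with a median of 49.86.

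**Figure D1:**
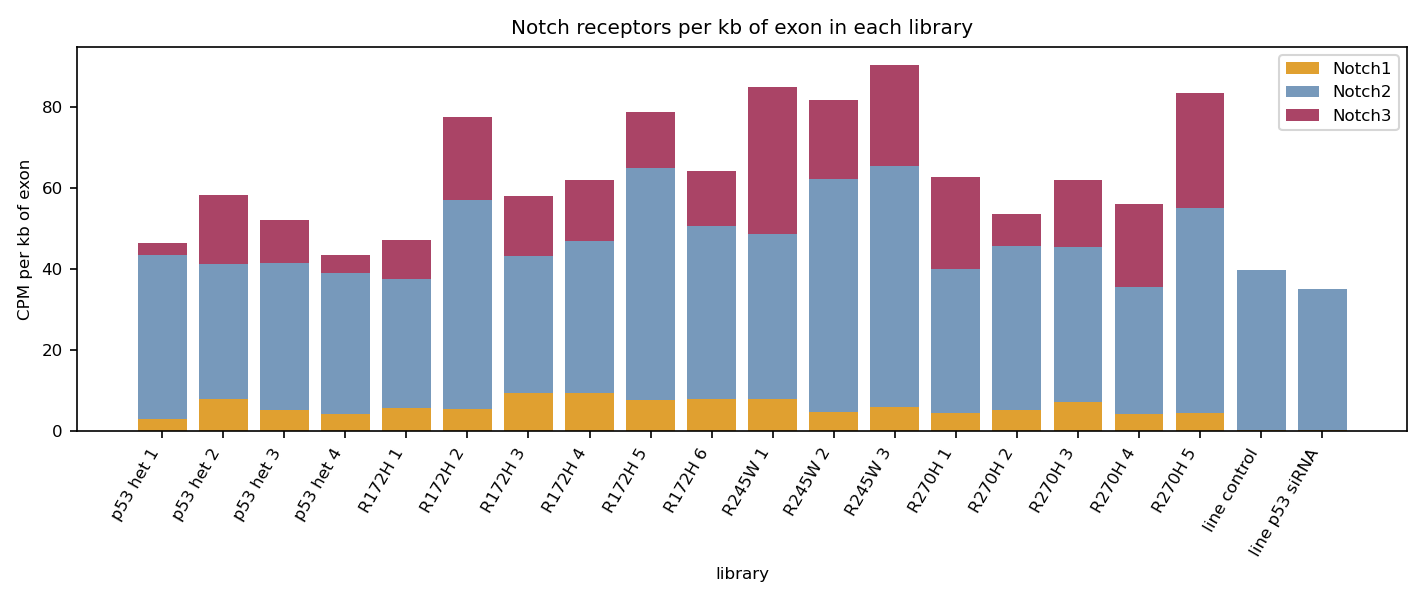
Stacked bars show CPM per kilobase of exon of Notch1, Notch2 and Notch3 in each of the 18 tumours and 2 line libraries. Notch2 is the largest segment in every bar (31.4 to 59.4 in the tumours), and in the line libraries it makes up 98.9% and 99.1% of the total.

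Notch2 was measured at 436.7, 359.3, 389.8 and 375.2 CPM in p53+/- tumours 1 to 4, and at 438.5, 619.8 and 640.2 CPM in R245W tumours 1 to 3. In R172H tumours it ranged from 342.7 to 617.0 CPM with a median of 431.4, and in R270H tumours it was 384.7, 434.5, 411.7, 338.1 and 546.8 CPM. The R245W values lay above the p53+/- values in CPM, but with the TMM scaling of the fits (trimmed mean of M values, a library-size correction) R245W tumour 1 lay below p53+/- tumour 1, and the other groups overlapped both. Within genotypes Notch2 was the steadiest of the 10 genes: its SD of log2 CPM was 0.281, which lies at percentile 12.7 of all tested genes, whose median was 0.506.

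Notch3 was measured at 23.82, 136.2, 87.02 and 35.64 CPM in p53+/- tumours and at 294.7, 157.4 and 201.9 CPM in R245W tumours. In R172H tumours it ranged from 76.85 to 164.2 CPM with a median of 116.3, and in R270H tumours it was 182.7, 64.36, 133.6, 165.0 and 229.4 CPM. All 3 R245W tumours were above all 4 p53+/- tumours, in CPM and with TMM, while R172H and R270H overlapped the p53+/- tumours. The p53+/- tumours 1 and 4 lay below every other tumour.

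Notch1 was measured at 44.2, 114.5, 75.7 and 60.11 CPM in p53+/- tumours, 112.5, 68.11 and 85.36 CPM in R245W tumours, and 62.72, 75.83, 103.7, 61.12 and 63.33 CPM in R270H tumours. In R172H tumours it ranged from 79.65 to 135.0 CPM with a median of 111.0. Every R172H tumour was above 4 of the 5 R270H tumours, but R270H tumour 3 lay inside the R172H range, and all other pairs of groups overlapped too.

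Among the ligands, Jag1 was above Jag2 and Dll1 per kilobase in 18 of 18 tumours, with a median of 10.4 CPM per kilobase of exon against 2.21 for Jag2 and 2.35 for Dll1. Dll1 was above Jag2 in 8 of 18 tumours, so those lower ligands had no steady order. The ligand gene Dll4, which is not a member, was at 4.732 to 24.38 CPM in the tumours, with a median of 15.76. Jag1 encodes the ligand of the Jagged family best known from bone and vessel development, and it was measured at 27.84, 67.17, 51.91 and 56.55 CPM in p53+/- tumours, 81.03, 20.85 and 41.12 CPM in R245W, and 81.16, 37.82, 128.2, 57.46 and 54.91 CPM in R270H. In R172H tumours Jag1 ranged from 44.34 to 117.9 CPM with a median of 81.95. All genotypes overlapped, and within R245W the highest tumour had 3.89 times the level of the lowest.

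Jag2 was measured at 9.424, 14.13, 11.98 and 11.26 CPM in p53+/- tumours, 20.32, 14.48 and 14.82 CPM in R245W and 17.87, 15.98, 9.343, 33.77 and 16.3 CPM in R270H, and in R172H it ranged from 10.77 to 21.94 CPM with a median of 19.2. The 3 R245W tumours lay above the 4 p53+/- tumours in CPM by a narrow margin, and with TMM the groups overlapped. Dll1, a Delta-like ligand, was measured at 5.402, 10.16, 6.582 and 4.108 CPM in p53+/- tumours, 13.28, 6.055 and 7.764 CPM in R245W and 9.973, 12.78, 9.866, 10.51 and 11.91 CPM in R270H, and in R172H it ranged from 8.194 to 11.21 CPM with a median of 10.27. For Dll1, p53+/- tumours 1, 3 and 4 lay below every R172H and R270H tumour, and p53+/- tumour 2 lay among them.

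Hes1, a basic helix-loop-helix repressor that Notch induces, was measured at 8.202, 17.37, 14.61 and 8.49 CPM in p53+/- tumours, 27.1, 19.53 and 20.29 CPM in R245W and 27.18, 25.47, 24.89, 20.37 and 24.77 CPM in R270H. In R172H tumours it ranged from 16.24 to 46.18 CPM with a median of 28.53. Each R245W and R270H tumour was above each p53+/- tumour in CPM; with TMM, R245W tumours 2 and 3 and R270H tumour 4 lay below p53+/- tumour 2. In R172H, tumours 2, 5 and 6 were at 46.18, 37.23 and 41.81 CPM, above every tumour of the other genotypes, and tumours 1, 3 and 4 were at 16.24, 17.11 and 19.83 CPM, so R172H overlapped p53+/- tumour 2.

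Hey1, a related repressor, was measured at 7.019, 66.58, 9.171 and 8.49 CPM in p53+/- tumours, and p53+/- tumour 2 was the highest of all 18. The other 3 p53+/- tumours were the lowest of the 18. Hey1 was at 22.46, 11.52 and 19.45 CPM in R245W and 27.46, 16.03, 29.86, 31.31 and 27.28 CPM in R270H, and in R172H it ranged from 13.2 to 44.69 CPM with a median of 34.81. The p53+/- group therefore spanned the other genotypes on the strength of 1 tumour.

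Heyl, the third Hey-family repressor, was measured at 29.14, 73.87, 52.09 and 7.976 CPM in p53+/- tumours, 54.96, 15.12 and 31.31 CPM in R245W and 37.67, 47.8, 105.2, 44.4 and 31.13 CPM in R270H. In R172H tumours it ranged from 69.77 to 165.8 CPM with a median of 90.83. All 6 R172H tumours were above all 3 R245W tumours; p53+/- tumour 2 and R270H tumour 3 lay within the R172H range. Heyl and Hey1 varied most within genotypes, with SDs of log2 CPM of 0.922 and 0.896, at percentiles 82.0 and 80.9 of all tested genes.

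Nrarp, a small ankyrin-repeat protein that is induced by Notch and feeds back on it, was low in all groups. It was measured at 0.4338, 1.73, 0.6582 and 1.404 CPM in p53+/- tumours, 0.312, 1.229 and 0.8766 CPM in R245W and 1.938, 0.7748, 1.009, 2.326 and 1.478 CPM in R270H, and in R172H it ranged from 0.3254 to 1.785 CPM with a median of 1.488. All genotypes overlapped. Per kilobase of exon its median was 0.51 CPM, against 9.98 for Hes1, 7.89 for Hey1 and 10.5 for Heyl, the lowest median of the 10 genes.

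**Figure D2:**
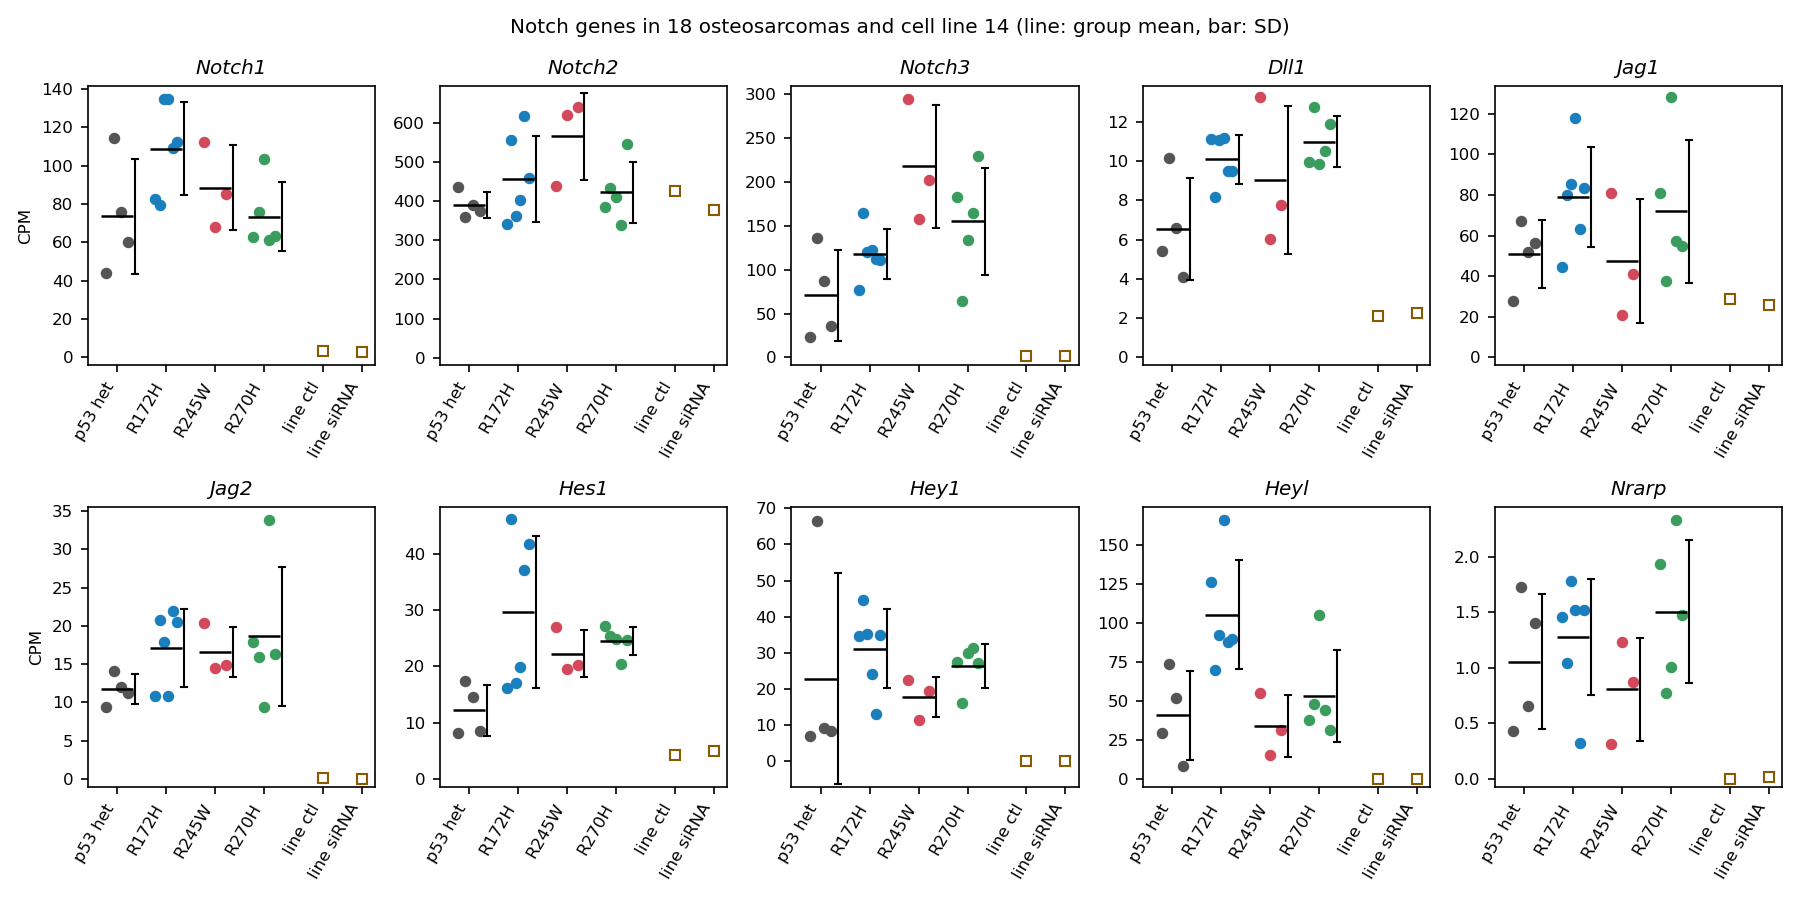
CPM of each of the 10 Notch genes in the 18 tumours by genotype and in the 2 libraries of cell line 14 (open squares); horizontal lines are group means and bars the SD, and the bar of Hey1 in p53+/- runs below 0 because of 1 tumour at 66.58 CPM. The R245W values of Notch3 (157.4 to 294.7) lie above the p53+/- values, and Heyl is highest in R172H (69.77 to 165.8), with overlap from p53+/- and R270H.

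In a bulk tumour sample, fewer cells of a type and less RNA per cell cannot be told apart. Summed CPM over 15 endothelial markers was 467 to 973 in p53+/- tumours, 912 to 1390 in R172H, 707 to 975 in R245W and 659 to 1080 in R270H, and over 12 pericyte and smooth muscle markers it was 595 to 1210, 807 to 1300, 467 to 1290 and 819 to 1290. None of these markers was at 0 in all tumours. In p53+/- tumours 1 to 4 the endothelial sum was 682, 973, 766 and 467 CPM, and Hey1 was at 7.019, 66.58, 9.171 and 8.49 CPM. Tumour 4 had the lowest Heyl and Dll1 of its group. Tumour 1 had the lowest Notch1, Notch3, Jag1, Jag2, Hes1, Hey1 and Nrarp.

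R172H tumours were compared first with p53+/- tumours. The members' fitted folds were all on the higher side: 10 of 10 were above 0, with a median log2 fold of 0.43, against 48.3% of all tested genes above 0 and a median of -0.02. None of the 10 passed the test (edgeR's quasi-likelihood test with Benjamini-Hochberg adjustment over all tested genes, adjusted p under 0.05), which called 0.0776% of all genes, and 2 of 10 had an unadjusted p under 0.05, against 12.3% of all genes. The 3 genes of lowest p were Hes1, at a log2 fold of 1.13 ± 0.34 (SE; adjusted p = 0.202), Heyl, at 1.17 ± 0.53 (adjusted p = 0.391), and Dll1, at 0.45 ± 0.27 (adjusted p = 0.516). In this contrast 0 of 10 members had groups that did not overlap, against 1.79% of all genes in the higher direction and 0.359% in the lower. DESeq2 and limma voom called 0 members as well. Endothelial markers were above 0 in 14 of 15 with a median of 0.43, and immediate early genes in 13 of 16 with a median of 0.525. Pericyte and smooth muscle markers were above 0 in 9 of 12 (median 0.254), T and NK cell markers in 1 of 12 (-0.613) and skeletal muscle markers in 0 of 9 (-1.11). No gene of these lists passed, and their part in the members' values was not tested.

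The R172H contrast rested on which p53+/- tumours were included. Its median was 0.265 without p53+/- tumour 1, 0.794 without tumour 2 and 0.284 without tumour 4, with 8 to 10 members above 0. Against p53+/- tumours 1 and 2, whose titles are of the same kind, 7 of 10 members were above 0 with a median of 0.241, and Hes1 was at 0.97 (adjusted p = 0.675), Heyl at 0.78 (adjusted p = 0.796) and Hey1 at -0.51. Without p53+/- tumour 2, the Hey1 fold rose from 0.23 ± 0.56 to 1.84 and passed (adjusted p = 0.0284), and Hey1 also passed the test of any difference among the 4 genotypes (adjusted p = 0.0326). Over the 25 alternatives tried, the adjusted p of Hes1 in this contrast ranged from 0.068 to 0.702 and that of Hey1 from 0.0284 to 0.986.

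R245W tumours were compared with the same p53+/- tumours. Of the 10 members 6 were above 0, with a median log2 fold of 0.241 (47.3% and -0.04 over all tested genes), and 0 passed, against 0.0728% of all genes. Only 1 member, Notch3, had an unadjusted p under 0.05, against 12.5% of all genes. Notch3 was at a log2 fold of 1.48 ± 0.50 (adjusted p = 0.253), Hes1 at 0.76 ± 0.38 (adjusted p = 0.423) and Notch2 at 0.45 ± 0.23 (adjusted p = 0.427). In CPM, Notch2, Notch3, Jag2 and Hes1 were higher with no overlap between the groups, 4 of 10 members against 6.21% of all genes; with TMM 1 of 10 was, Notch3, against 4.80%. In CPM 0 were lower without overlap, against 2.90%. DESeq2 and limma voom called 0 members here too. The 3 other target genes were on the other side of 0: Hey1 at -0.54 ± 0.66, Heyl at -0.43 ± 0.61 and Nrarp at -0.48 ± 0.61, each within 1 SE of 0. Over 25 alternatives the folds ranged from -1.29 to 1.07 for Hey1, -0.962 to 0.0974 for Heyl and -0.948 to -0.0509 for Nrarp. Hey1 was at 66.58 CPM in p53+/- tumour 2, and the other p53+/- tumours lay below every R245W tumour. Pericyte and smooth muscle markers were above 0 in 4 of 12, with a median of -0.579, and endothelial markers in 9 of 15, with a median of 0.0845. T and NK cell markers were above 0 in 0 of 12 (median -1.61) and skeletal muscle markers in 0 of 9 (-1.46). No gene of these lists passed, and their part was not tested. The members' direction did not hold in all settings: 5 of 10 were above 0 with the kind of title as a term (median -0.004) and against p53+/- tumours of the same kind of title (median -0.02), and 4 of 10 without R245W tumour 1 (median -0.05). Without p53+/- tumour 2 the median was 0.54, with 9 of 10 above 0, and in limma voom it was 0.359, with 8 of 10. The median was 0.10 without p53+/- tumour 1 and 0.08 without p53+/- tumour 4.

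In R270H tumours, again compared with p53+/- tumours, 9 of 10 members were above 0 with a median log2 fold of 0.414 (48.7% and -0.01 over all genes). None passed, as with all genes tested, of which 0.00% passed, and DESeq2 and limma voom called 0 members; 3 of 10 members had an unadjusted p under 0.05, against 11.5% of all genes. Hes1 was at 0.89 ± 0.34 (adjusted p = 0.325), Notch3 at 0.99 ± 0.45 (adjusted p = 0.409) and Dll1 at 0.61 ± 0.28 (adjusted p = 0.421). In CPM Hes1 was the 1 member whose groups did not overlap, against 2.55% of all genes in the higher direction and 0.946% in the lower; with TMM 0 of 10 were higher without overlap, against 1.59%. The members' median was 0.175 without p53+/- tumour 1, 0.81 without p53+/- tumour 2, 0.247 without R270H tumour 3, 0.272 without R270H tumour 4 and 0.717 with the kind of title as a term, with 6 to 10 members above 0. Pericyte and smooth muscle markers were above 0 in 8 of 12 (median 0.662), endothelial markers in 12 of 15 (0.336) and immediate early genes in 13 of 16 (0.458). T and NK cell markers were above 0 in 0 of 12 (-0.392) and skeletal muscle markers in 0 of 9 (-0.602). Of 8 epidermis markers 5 were tested, and 4 were above 0 (3.45). The epidermis sum was 4.96, 9.98, 67.9, 377 and 3.31 CPM in R270H tumours 1 to 5, and 2.25 to 19.0 CPM in p53+/- tumours. The part of these lists in the members' values was not tested. Since the 3 contrasts above share the p53+/- tumours, a low p53+/- tumour raises all 3 together. Hes1 was at 1.13, 0.76 and 0.89 and Notch3 at 0.54, 1.48 and 0.99 in R172H, R245W and R270H against p53+/-.

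**Figure D3:**
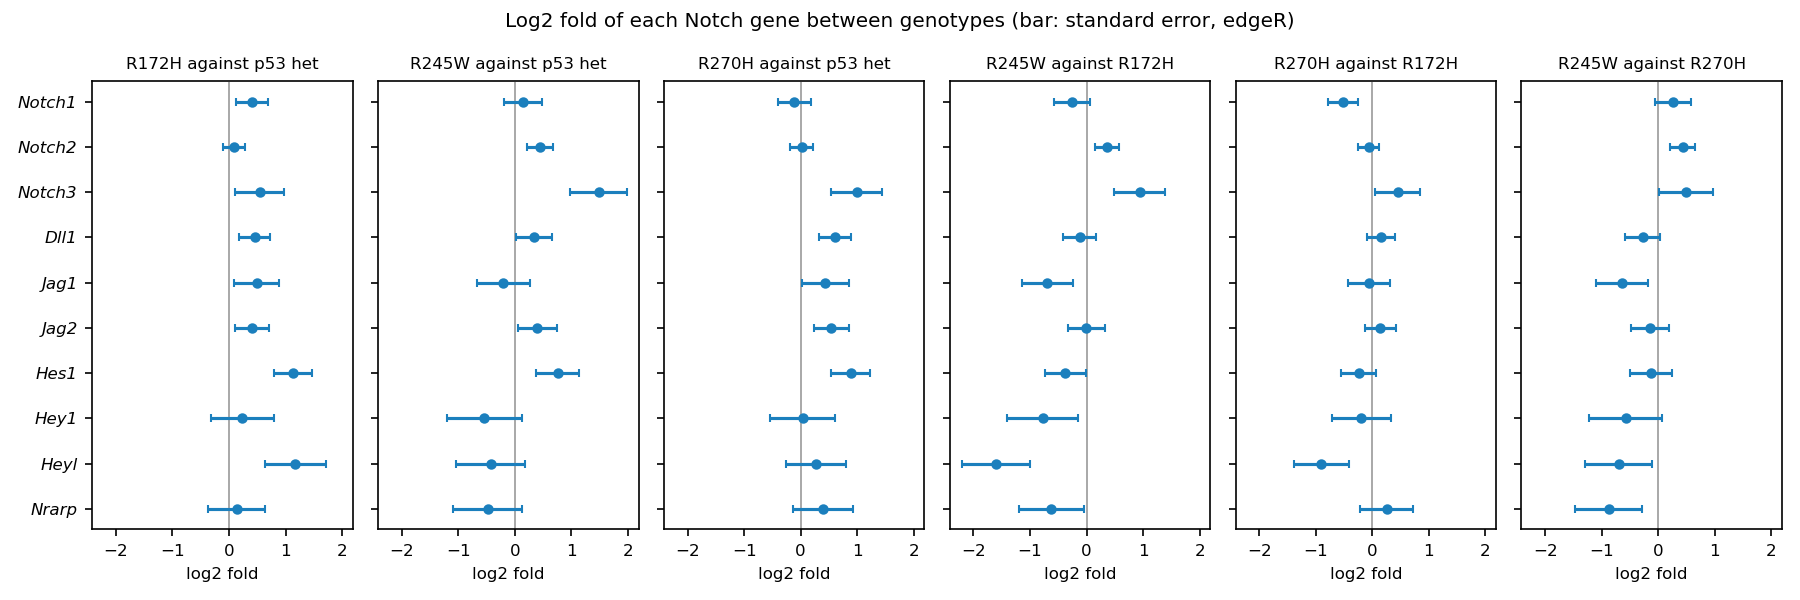
Log2 fold of each of the 10 Notch genes in the 6 contrasts between genotypes, with bars of 1 SE from edgeR and a line at 0 (no difference). In R172H against p53+/- the points lie right of 0 (median 0.43), and Heyl lies farthest left in R245W against R172H (-1.60); none of the points passed the adjusted test.

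Between the missense alleles, R245W tumours were compared with R172H tumours. Here 2 of 10 members, Notch2 and Notch3, were above 0, and the median log2 fold was -0.314 (49.7% and -0.003 over all genes). None of the 10 passed, against 0.155% of all genes, and 1 had an unadjusted p under 0.05, against 10.8%; DESeq2 and limma voom called 0. Heyl was at a log2 fold of -1.60 ± 0.61 (adjusted p = 0.347), Notch3 at 0.94 ± 0.45 (adjusted p = 0.465) and Notch2 at 0.37 ± 0.21 (adjusted p = 0.555). Heyl was the 1 member whose groups did not overlap, against 3.22% of all genes in the lower direction and 2.02% in the higher. With TMM Heyl was lower (2.74% of all genes) and Notch3 higher (2.86%) without overlap. For Heyl, over 24 alternatives, the fold stayed between -2.13 and -1.26 and the adjusted p between 0.151 and 0.774. Pericyte and smooth muscle markers were below 0 in 10 of 12, with a median of -0.678, and endothelial markers in 13 of 15, with a median of -0.279. Immediate early genes were below 0 in 13 of 16 (median -0.788) and T and NK cell markers in 11 of 12 (-0.756). B and plasma cell markers were below 0 in 2 of 8 (0.392). No gene of these lists passed, and their part in the Heyl value was not tested. The members' median was -0.194 without R172H tumour 6, -0.475 without R245W tumour 1 and -0.21 without R245W tumour 2, with 2 to 4 members above 0, and -0.103 in limma voom.

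R270H tumours were compared with R172H tumours, the contrast with the most genes called in edgeR when the kind of title was not a term. Of the 10 members 4 were above 0, with a median log2 fold of -0.06 (48.9% and -0.02 over all genes), and 0 passed, against 5.28% of all genes. None had an unadjusted p under 0.05 in edgeR, against 23.2% of all genes; DESeq2 called 0 and limma voom 1. Notch1 was at -0.52 ± 0.27 (adjusted p = 0.254), Heyl at -0.90 ± 0.49 (adjusted p = 0.284) and Notch3 at 0.45 ± 0.39 (adjusted p = 0.528). Heyl was the gene that passed in limma voom with sample quality weights, at -1.25 (adjusted p = 0.0476), and with the kind of title as a term in the model its fold was 0.004 (adjusted p = 0.999). The groups overlapped for all 10 members, against 3.86% of all genes higher and 2.87% lower without overlap. With the kind of title as a term 1 gene of all those tested passed here, and 41 passed in R245W against R172H. Of the members 8 of 10 were then above 0, with a median of 0.228. In fits that lacked this term the median was 0.03 without R270H tumour 2, -0.209 without R270H tumour 3 and -0.151 without R172H tumour 1. It was -0.006 without R172H tumour 6 and 0.0839 in limma voom. Endothelial markers were below 0 in 8 of 15 (median -0.27) and pericyte and smooth muscle markers above 0 in 7 of 12 (0.295). Of the 5 epidermis markers tested 4 were above 0 (4.2), and 2 passed as higher. B and plasma cell markers were above 0 in 7 of 8 (1.21) and none passed. Macrophage markers were above 0 in 7 of 10 (0.221), and 1 passed as lower. The part of these lists was not tested.

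In R245W against R270H, 3 of 10 members were above 0, with a median log2 fold of -0.209 (48.5% and -0.02 over all genes). None of the 10 passed, against 1.24% of all genes, and 0 of 10 had an unadjusted p under 0.05 in edgeR, against 18.4%; DESeq2 and limma voom called 0 as well. Notch2 was at 0.43 ± 0.22 (adjusted p = 0.298), Nrarp at -0.87 ± 0.59 (adjusted p = 0.453) and Jag1 at -0.64 ± 0.46 (adjusted p = 0.483). The groups overlapped for all 10 members, against 5.44% of all genes higher and 7.50% lower without overlap. With the kind of title as a term 1 of 10 members was above 0, with a median of -0.528; the median was -0.396 without R245W tumour 1, -0.07 without tumour 2 and -0.113 without tumour 3. Pericyte and smooth muscle markers were below 0 in 9 of 12 (median -0.713), endothelial markers in 10 of 15 (-0.313) and immediate early genes in 12 of 16 (-0.51). Epidermis markers were below 0 in 5 of the 5 tested (-4.41) and T and NK cell markers in 11 of 12 (-1.09). No gene of these lists passed, and their part was not tested.

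A single test of any difference among the 4 genotypes called 0 of 10 members, against 2.86% of all genes. Hes1, Notch3 and Heyl had an unadjusted p under 0.05, 3 of 10 members against 22.1% of all genes, with adjusted p of 0.172, 0.207 and 0.208 in edgeR.

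The other genes of the pathway were taken from a list of 51, of which 46 were tested; Dll3, Hes2, Hes3, Hes5 and Hes7 had too few reads. In the contrasts of R172H, R245W and R270H with p53+/-, 0 of the 46 passed in edgeR, with 13, 7 and 9 at an unadjusted p under 0.05 (28.3%, 15.2% and 19.6%, against 12.3%, 12.5% and 11.5% of all genes), and DESeq2 called 1 in the R172H contrast. Against p53+/-, the 3 genes of lowest p in R172H were Furin, the convertase that processes Notch precursors, at 0.61 ± 0.16 (adjusted p = 0.161), Dlk2, a non-canonical Delta-like protein, at -4.23 ± 1.16 (adjusted p = 0.171), and Crebbp, a coactivator acetyltransferase, at 0.57 ± 0.19 (adjusted p = 0.256). In R245W they were Crebbp, at 0.72 ± 0.22 (adjusted p = 0.213), the Mastermind coactivator Maml3, at 0.86 ± 0.28 (adjusted p = 0.243), and the corepressor Spen, at 0.80 ± 0.27 (adjusted p = 0.256). In R270H they were Neurl1a, at -1.79 ± 0.54 (adjusted p = 0.218), the fringe gene Rfng, at -0.83 ± 0.25 (adjusted p = 0.221), and Mib2, at -0.51 ± 0.17 (adjusted p = 0.244); Neurl1a and Mib2 encode ubiquitin ligases that act on ligands.

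In R270H against R172H, 4 of the 46 other pathway genes fell and 0 rose, beside 1.87% of all genes called lower and 5.28% called in either direction, and 15 (32.6%) had an unadjusted p under 0.05, against 23.2%; 3 of the 4 are described. Furin fell by 0.64 ± 0.15 on the log2 scale (adjusted p = 0.0251), from 138.0 to 187.0 CPM in R172H to 80.35 to 113.7 CPM in R270H. Rfng, whose product adds sugars to Notch receptors, fell by 0.85 ± 0.23 (adjusted p = 0.0413), from 24.34 to 32.4 CPM to 10.24 to 18.61 CPM. These ranges did not overlap. Dtx2, a Deltex ubiquitin ligase, fell by 0.56 ± 0.16 (adjusted p = 0.0447), from 26.71 to 39.43 CPM to 16.84 to 25.53 CPM. Furin and Rfng were apart with TMM as well, while for Dtx2 the groups then overlapped. With the kind of title as a term none of these 3 passed: Furin was at -0.30, Rfng at -0.58 and Dtx2 at -0.43 (adjusted p of 0.691 to 0.780). Without a filter on low counts the folds were -0.64, -0.85 and -0.56 and the adjusted p 0.0555 to 0.101. Leaving out 1 library ended the call in 3 of 18 cases for Furin, 11 for Rfng and 12 for Dtx2.

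In R245W against R172H and against R270H, 0 of the 46 passed in edgeR, with 4 and 16 at an unadjusted p under 0.05 (8.7% and 34.8%, against 10.8% and 18.4% of all genes); DESeq2 called 0 and 2. The 3 genes of lowest p against R172H were Dlk2, at 4.98 ± 1.23 (adjusted p = 0.153), the deacetylase Hdac1, at -0.45 ± 0.16 (adjusted p = 0.322), and Fbxw7, which marks the Notch intracellular domain for degradation, at 0.73 ± 0.27 (adjusted p = 0.341). Against R270H they were Dtx2, at 0.68 ± 0.18 (adjusted p = 0.071), Dlk2, at 4.12 ± 1.27 (adjusted p = 0.107), and Rfng, at 0.88 ± 0.27 (adjusted p = 0.107). Dlk2 was the 1 gene of the list that passed the test of any difference among genotypes (adjusted p = 0.0485), ahead of Furin (adjusted p = 0.0512) and Dtx2 (adjusted p = 0.0864). Its values turned on 2 tumours: it was at 28.76 CPM in p53+/- tumour 4 and at 33.1 CPM in R245W tumour 2, and between 0.1596 and 1.753 CPM in the other 16.

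Members were next compared with each other across the 18 tumours, as log2 CPM. Of the 45 pairs 39 had a Pearson's r above 0, and 5 passed a permutation test (100000 permutations, two-sided, adjusted over the 45). The 6 pairs below 0 were Notch2 with Dll1 (-0.17), Jag1 (-0.30), Hey1 (-0.17), Heyl (-0.19) and Nrarp (-0.38), and Hes1 with Nrarp (-0.03), and none of these passed. Notch1 rose with Heyl at r = 0.72 (permutation p = 0.00053, adjusted 0.0207; Spearman's rho = 0.74, permutation p = 0.00073, adjusted 0.0306), and with Jag1 at r = 0.65 (permutation p = 0.00303, adjusted 0.0316; rho = 0.69, permutation p = 0.00204, adjusted 0.0306). The relations of Notch1 kept an r of 0.73 and 0.59 without the 2 tumours farthest from the median of Notch1. Within the 11 tumours with serial-number titles r was 0.65 and 0.80, and within the other 7 it was 0.77 and 0.68.

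Dll1 rose with Heyl at r = 0.71 (permutation p = 0.00138, adjusted 0.0207; rho = 0.45, permutation p = 0.0603, adjusted 0.152) and with Hey1 at r = 0.70 (permutation p = 0.00115, adjusted 0.0207; rho = 0.58, permutation p = 0.0123, adjusted 0.0768). Without the 2 tumours farthest from the median of Dll1 these fell to 0.45 and 0.51, and within the kinds of title they were 0.73 and 0.74 for Heyl and 0.67 and 0.80 for Hey1. Notch3 rose with Hes1 at r = 0.66 (permutation p = 0.00351, adjusted 0.0316; rho = 0.48, permutation p = 0.0465, adjusted 0.152), but without the 2 tumours farthest from the median of Notch3 the r was 0.20, so this relation rests on those tumours. Within the kinds of title it was 0.59 and 0.78. By adjusted rho 3 pairs passed, 2 of them among these 5 (Notch1 with Heyl and with Jag1), and the other was Jag1 with Heyl (rho = 0.71, permutation p = 0.00139, adjusted 0.0306; r = 0.61, adjusted permutation p = 0.0526). After the mean of each genotype was taken away, r was 0.73 for Notch1 and Heyl, 0.74 for Notch1 and Jag1, 0.82 for Dll1 and Heyl, 0.64 for Dll1 and Hey1, and 0.60 for Notch3 and Hes1.

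**Figure D4:**
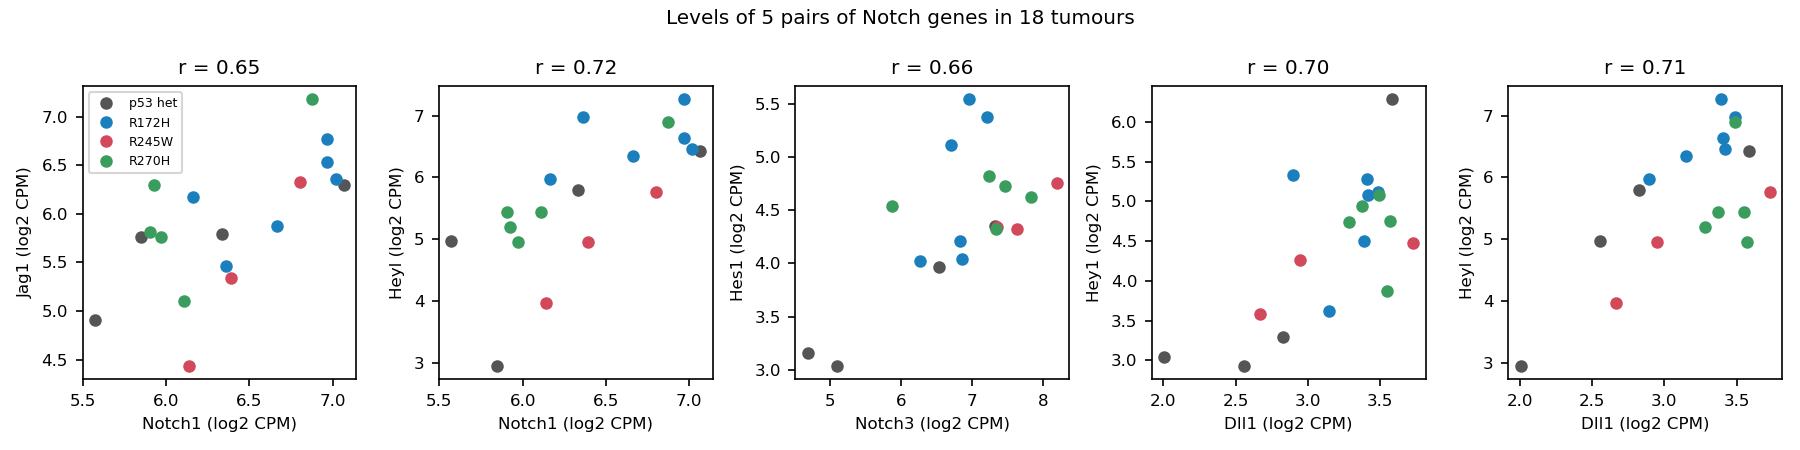
Each panel plots log2 CPM of 1 pair of Notch genes in the 18 tumours, coloured by genotype, for the 5 pairs that passed the permutation test. Points rise from left to right (r of 0.65 to 0.72), and in the panel of Notch3 and Hes1 the 2 p53+/- tumours at the lower left stand apart from the rest.

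**Figure D5:**
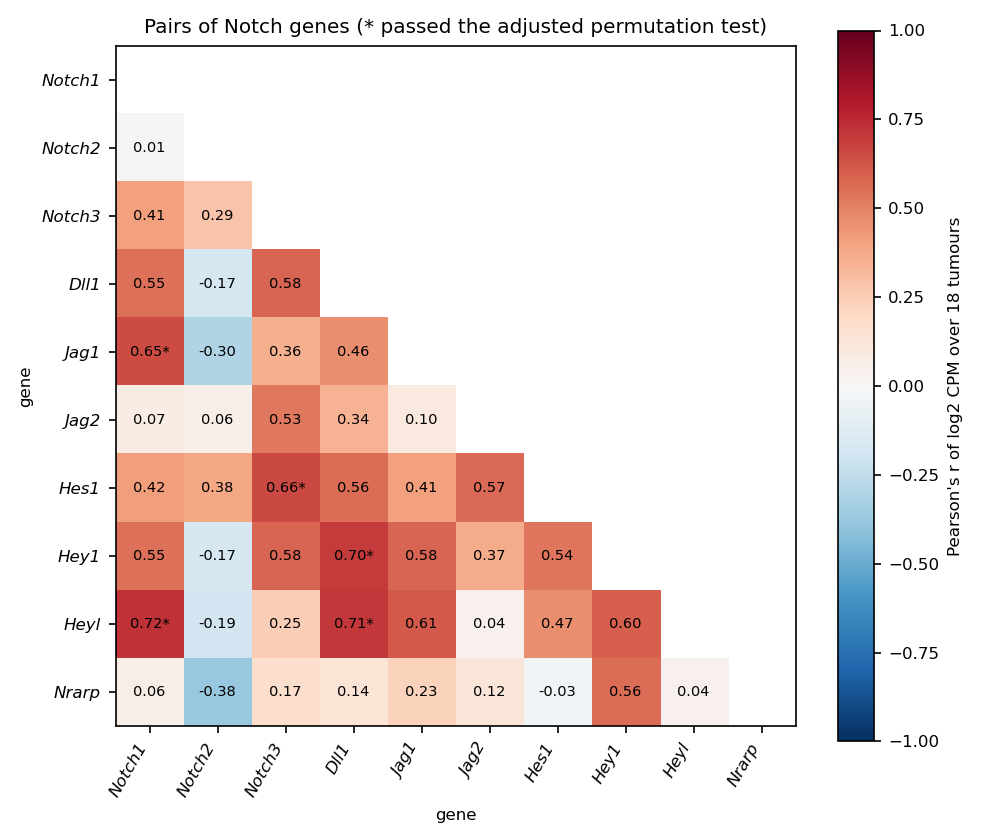
Pearson's r of log2 CPM across the 18 tumours for each pair of the 10 Notch genes, on a colour scale from negative (blue) to positive (red); an asterisk marks the 5 pairs that passed the adjusted permutation test. Most pairs (39 of 45) are above 0, and Notch1 with Heyl has the highest value, 0.72.

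The members' levels were also set against the summed levels of 11 marker lists, 110 pairs in all, and 0 passed the adjusted permutation test. The pair of lowest p was the endothelial list with Dll1, at r = 0.62 (permutation p = 0.00718, adjusted 0.386). Notch3 with the pericyte and smooth muscle list was at r = 0.02 (permutation p = 0.933, adjusted 0.978). These tests do not show that the levels are unrelated to the makeup of the tumours.

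For each member, the 3 most alike genes by Pearson's r across the 18 tumours were taken among 11201 genes of at least moderate level, as a description with no test. For Notch1 they were Coq8b (0.87), the integrin gene Itga5 (0.83) and the fibronectin gene Fn1 (0.83). For Notch2 they were the taurine transporter gene Slc6a6 (0.81), Unkl (0.80) and Rapgef2 (0.78), and for Notch3 Kif1c, Plekhg2 and Kalrn, each at 0.75. For Dll1 they were Arhgap31 (0.81), the collagen IV gene Col4a2 (0.80) and Npepps (0.78). For Jag1 they were Cdc42ep4 (0.80), Sipa1l2 (0.79) and the fibrillin gene Fbn1 (0.77), and for Jag2 Wdyhv1 (0.74), Atad2 (0.70) and Kank3 (0.70). Among the targets, Hes1 was most like the neuropilin gene Nrp1 (0.72), Trp53 (0.71) and Snrnp70 (0.69). Hey1 was most like Col4a2 (0.88), the netrin receptor gene Unc5c (0.85) and the vasohibin gene Vash1 (0.82). Heyl was most like the transcription factor gene Runx1 (0.84), Tmem26 (0.84) and Myo1e (0.81), and Nrarp was most like Fabp5 (0.87), Mid1 (0.82) and the apelin gene Apln (0.80). Col4a2 is the 1 gene that appears for both a ligand, Dll1, and a target, Hey1. Spearman's rho was 0.32 for Notch3 with Plekhg2, 0.54 for Hes1 with Trp53 and at least 0.62 for the other pairs. With the mean of each genotype taken away, r was 0.63 for Hes1 with Trp53 and 0.56 for Notch3 with Kalrn.

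In cell line 14 the p53 siRNA library held 30.56 CPM of Trp53 against 94.91 CPM in the control, the direction its label gives. Of the receptor genes Notch2 had the most reads: it was at 425.5 CPM in the control (95% exact Poisson interval 420.4 to 430.5) and 376.2 CPM with p53 siRNA (371.8 to 380.6), within the range of the tumours. Notch1 was at 3.262 and 2.686 CPM and Notch3 at 1.732 and 1.063 CPM, below the lowest tumour values of 44.2 and 23.82 CPM. Jag1 was at 29 CPM in the control and 26.02 CPM with p53 siRNA, within the tumour range. Dll1 (2.107 and 2.277 CPM), Jag2 (0.1717 and 0.05453 CPM) and Hes1 (4.182 and 4.935 CPM) were below every tumour.

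Hey1 had 3 counts in the control and 12 with p53 siRNA, Nrarp 0 and 1, and Heyl 0 in both libraries, where the 95% exact Poisson interval reaches up to 0.0576 CPM in the control and 0.0503 CPM with p53 siRNA. Intervals and floors cover counting error only. The DNA-binding partner Rbpj was at 297.1 CPM in the line control against 34.04 to 91.32 CPM in the tumours. Endothelial markers summed to 64.8 CPM in the line control, and 5 of the 15 (Tie1, Erg, Emcn, Cldn5 and Robo4) were at or under 3 counts there, while the 12 pericyte and smooth muscle markers summed to 1040 CPM, nearly all of it Acta2; their part in the difference between line and tumours was not tested.

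Both members that reached 10 CPM in the line were slightly lower in the p53 siRNA library: the log2 ratio of siRNA to control was -0.18 for Notch2 and -0.15 for Jag1, on log2(CPM + 1). Both lie within the range of -0.316 to 0.235 between the 5th and 95th percentiles of the 9398 genes at that level, whose median was -0.018. Of the other pathway genes 34 reached that level, 10 above 0 and 24 below, with a median of -0.0809. The highest ratios among them were 0.39 for Dlk2, 0.25 for Hes6 and 0.20 for the protease gene Adam17, and the lowest were -0.45 for the acetyltransferase gene Ep300 and -0.41 for Maml1. These ratios compare 2 libraries and not 2 conditions. The share of the 9398 genes on each side of 0 is not given here, and TMM scaling moved the ratio of Notch2 to -0.147.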

How the data were processed

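The deposited table holds whole-number read counts per gene, which the authors made with STAR 2.6.0b on GRCm38, per the submitters' processing notes; the design text names FastQC and DESeq2, and the counting program, annotation and use of strand are not given in the sources used here. Without strand, reads from overlapping genes cannot be told apart. The members and lists were chosen with earlier results of these data known. Of the 49585 gene IDs 49326 matched GENCODE M21, which gave coordinates and exon lengths. No column was left unused.

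The 18 tumours were fitted together in edgeR 4.0.16 (R 4.3.3) by genotype, with filterByExpr (minimum count 10, minimum total 15), TMM and the quasi-likelihood test, 14 residual degrees of freedom, and adjustment over 20616 genes. The standard error is the log2 fold divided by the square root of F. The fit was tested on simulated data. Alternatives were DESeq2 1.42.0, its size factors in edgeR, no filter, limma 3.58.1 voom with sample quality weights, only the 2 groups compared, the kind of title as a covariate, p53+/- tumours of the same kind of title, and each tumour left out in turn. Levels in CPM use the whole library total; correlations use log2 CPM with TMM and a prior count of 2. The text names every member's levels, in each contrast the 3 members and 3 other pathway genes of lowest p and all that passed, the 3 genes most like each member (mean CPM of at least 5, not known only by a model number), and in the line the genes of at least 10 CPM. One gene that this rule would name is not reported here. The line pair was not tested.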

Additional observations from a re-analysis of the deposited data

Results flagged for a closer look

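In the 30 groups of 4 to 6 tumours in which a member was examined, 3 tumours stood apart from the rest of their group by Dixon's test; chance alone flags about 1 in 20 groups. Hey1 was at 66.58 CPM in p53+/- tumour 2, and its gap to the next tumour was 0.964 of the range of the group. Hey1 was at 16.03 CPM in R270H tumour 2, the lowest of its group, with a gap of 0.736 of the range. Heyl was at 105.2 CPM in R270H tumour 3, the highest of its group, with a gap of 0.775 of the range.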

How the results depend on the processing

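No paired analysis was possible because the replicate numbers follow accession order and pair no tumours. For the members, the count of 0 called became 1 in R270H against R172H with limma voom (Heyl) and 1 in R172H against p53+/- and in the test of any difference without p53+/- tumour 2 (Hey1), so leaving out each tumour gave 0 to 1 there. On log2 CPM with TMM, a scale added after seeing the data, the members higher without overlap were 1 in place of 4 in R245W against p53+/-, 0 in place of 1 in R270H against p53+/- and 1 in place of 0 in R245W against R172H. With the kind of title as a covariate, the fold of Heyl in R270H against R172H changed sign to 0.00407 ± 0.91 (SE). That of Hey1 went from -0.20 to 2.06 ± 0.84, and neither passed in edgeR (adjusted p of 0.999 and 0.549). Only the p53+/- group holds both kinds of title, and there Hey1 was at 66.58 CPM in tumour 2 and 7.019 to 9.171 CPM in the others. Folds of other members changed sign too. Among these were Hey1 in R270H against p53+/-, in 6 of 25 alternatives, and Jag2 in R245W against R172H, in 8 of 24. Depth limits Nrarp in the tumours and Hey1, Heyl, Jag2 and Nrarp in the line. In the line, TMM moved the ratio of Notch2 to -0.147, and a minimum of 1 CPM gave 6 members a ratio in place of 2. Of pairs of members, 5 passed as reported, 8 after removal of genotype means, 0 within the 7 tumours without serial-number titles and 2 without the 2 tumours farthest from the median. Among the other pathway genes, DESeq2 called 1 in R172H against p53+/-, 7 in R270H against R172H (main count 4), 2 in R245W against R270H (main 0) and 7 in the test of any difference (main 1). In R270H against R172H the count was 0 without the filter and with the covariate, 7 with only the 2 groups, and 0 to 5 without 1 tumour. It was 2 with voom in R245W against R270H, and 0 with the covariate in the test of any difference. Leaving out 1 tumour gave 0 to 1 in R245W against R172H and against R270H, and 0 to 3 in the test of any difference. Over all genes, DESeq2 called 307, 371 and 329 in R172H, R245W and R270H against p53+/- (edgeR 16, 15 and 0), 352 in R245W against R172H (32), 2243 in R270H against R172H (1088), 1201 in R245W against R270H (255) and 2513 for any difference (590). Voom called 0 in R172H and 1 in R270H against p53+/-, 119 in R245W against R172H, 2294 in R270H against R172H, 1047 in R245W against R270H and 330 for any difference. Without the filter the counts were 33 in R172H and 2 in R270H against p53+/-, 633 in R270H against R172H and 109 in R245W against R270H. With only the 2 groups they were 0 in R172H and 4 in R245W against p53+/- and 1638 in R270H against R172H. With the covariate they were 3, 8 and 4 in R172H, R245W and R270H against p53+/-, 1 in R270H against R172H, 8 in R245W against R270H and 19 for any difference, and with p53+/- tumours of the same kind of title 4, 9 and 4. Leaving out 1 tumour gave 0 to 166, 5 to 30 and 0 to 21 against p53+/-, 14 to 39 in R245W against R172H, 469 to 1323 in R270H against R172H, 48 to 411 in R245W against R270H and 185 to 937 for any difference. The cause of these differences was not tested.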

Other observations

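Heyl lies on chromosome 4 at 123233556 to 123249875 (GRCm38). Within 1 Mb of it 31 other genes were tested, and in R245W against p53+/- tumours 3 of them passed in edgeR (Ndufs5, Rhbdl2 and Gm12904) against 0.0728% of all genes, and 21 of 31 were below 0, against 52.7%. In R245W against R172H 3 of 31 passed (0.155% of all genes) and 18 were below 0, and in R172H against p53+/- 1 passed (0.0776%). Ndufs5 is a gene of mitochondrial complex I 463 kb from Heyl and fell by 3.97 ± 0.37 on the log2 scale (adjusted p = 5.15e-05). Heyl itself was at -0.43 ± 0.61 in R245W against p53+/- and did not pass. Rhbdl2, a rhomboid protease gene 538 kb from Heyl, fell by 2.77 ± 0.40 (adjusted p = 0.00708). These genes were chosen after their values were seen.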
